A study of Mus musculus with 2 samples.

Results

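Interferon-stimulated genes are the genes that a cell switches on after interferon has bound its receptors. The 51 genes described here were a named set, taken with their synonyms, and were found through the RefSeq transcript that each array probe carries. The array held named probes for 49 of the 51 genes, of 20884 named genes in all, and 48 of them lay well above background on at least 1 array. The remaining 2, Mx1 and Mx2, had no spot under this rule, and the RefSeq table lists both as transcribed pseudogenes. Of the 51, 3 (Ifnar1, Ifnar2 and Ifngr1) encode receptor chains, which carry the interferon signal rather than answer to it.

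Type I interferons bind a receptor made of the Ifnar1 and Ifnar2 chains, and type II interferon binds one built on Ifngr1 and Ifngr2. Janus kinases on these receptors phosphorylate Stat proteins, among them Stat2, which joins Irf9 in a complex that binds the interferon-stimulated response element (ISRE) of target promoters. The gamma-activated site (GAS) is another element that Stat proteins bind. The induced proteins sense foreign RNA, degrade or edit it, block viral entry, attack the vacuoles of intracellular parasites and tag proteins with ISG15. In fat, adipocytes and resident macrophages can both respond to interferon.

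The study examined differentiated small proliferative adipocytes, here SPAD, and set them against differentiated stromal vascular cells, here SVCD. Both came from collagenase-digested epididymal fat of male C57/BL mice, whose age and number the labels do not give. Stromal vascular cells were the lower phase after a spin at 9 g, and small proliferative adipocytes were the sediment when the floating cells were spun again at 226 g, so both are cultures of a density fraction and not of a sorted cell type. Each was grown in DMEM to 90% confluency, then given a differentiation medium with insulin, dexamethasone and IBMX for 3 days and plain DMEM for 2 days, so the controls had been through the adipogenic stimulus too. No virus, interferon or other immune stimulus is named for either group. RNA of each group (30 ng) was labelled with Cy3 and hybridised to 1 one-colour Agilent array per group, so that every difference below compares 2 arrays, has no replicate check and carries no p-value.

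The 2 arrays had similar shares of probes well above background, 64.5% for SPAD and 65.6% for SVCD, and no non-control spot was saturated. Processed intensities are in arbitrary scanner units. Each log2 difference is SPAD minus SVCD after each array was scaled to its own 75th percentile, which lies 0.13 above the log2 ratio of the printed intensities. The ± after a difference is the SD expected from spot-to-spot error, which was 0.03 to 0.34 (median 0.09) for the 44 members well above background on both arrays. It leaves out differences between cultures, extractions and labelling reactions. All 10 white adipocyte markers were higher in SPAD by 2-fold or more (median log2 difference 3.80), among them Cfd at 7541 in SPAD and 50.6 in SVCD. The label of SPAD also names proliferation, but 7 of 8 proliferation markers were at least 2-fold lower in SPAD (median -4.90). Of 10 endothelial markers, 8 were at least 2-fold higher in SPAD.

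Most interferon-stimulated genes read lower in SPAD than in SVCD, and a smaller number read higher. Of 48 members above background on at least 1 array, 20 (41.7%) were at least 2-fold lower in SPAD and 5 (10.4%) at least 2-fold higher. Over all 15625 named genes counted the same way, 14.1% were lower and 16.3% higher by that size. Of the 44 members above background on both arrays, 32 lay below 0 and 12 above it. That is 72.7% below 0, against 46.3% of all 14074 named genes above background on both arrays. The median log2 difference of these members was -0.78, with quartiles at -1.20 and 0.11, while all named genes had a median of 0.07 with quartiles at -0.48 and 0.61. In RNA from whole cultures, fewer cells of a type and less RNA per cell cannot be told apart.

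The counts depended on how the arrays were scaled and on the background correction. Scaled to 8 spike-in controls, which read 0.84 log2 units brighter on the SPAD array, the median of all named genes moved to -0.90, 35 members were at least 2-fold lower and 2 higher, beside 44.8% and 5.64% of all named genes. Under that scaling 11.2% of all genes at least 2-fold apart were higher in SPAD, in place of 53.6%. The members' median lay 0.85 below the median of all genes under both scalings, a gap that such a scaling cannot alter, since it adds 1 constant to every gene. With the normexp background correction, which shrinks dim signals, 9 members were at least 2-fold lower and 3 higher, beside 9.15% of all genes lower. Of the 20 members at least 2-fold lower, 5 lay between -1.1 and -1 on the log2 scale and a further 3 members lay just short of the threshold, between -1 and -0.85.

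**Figure D1:**
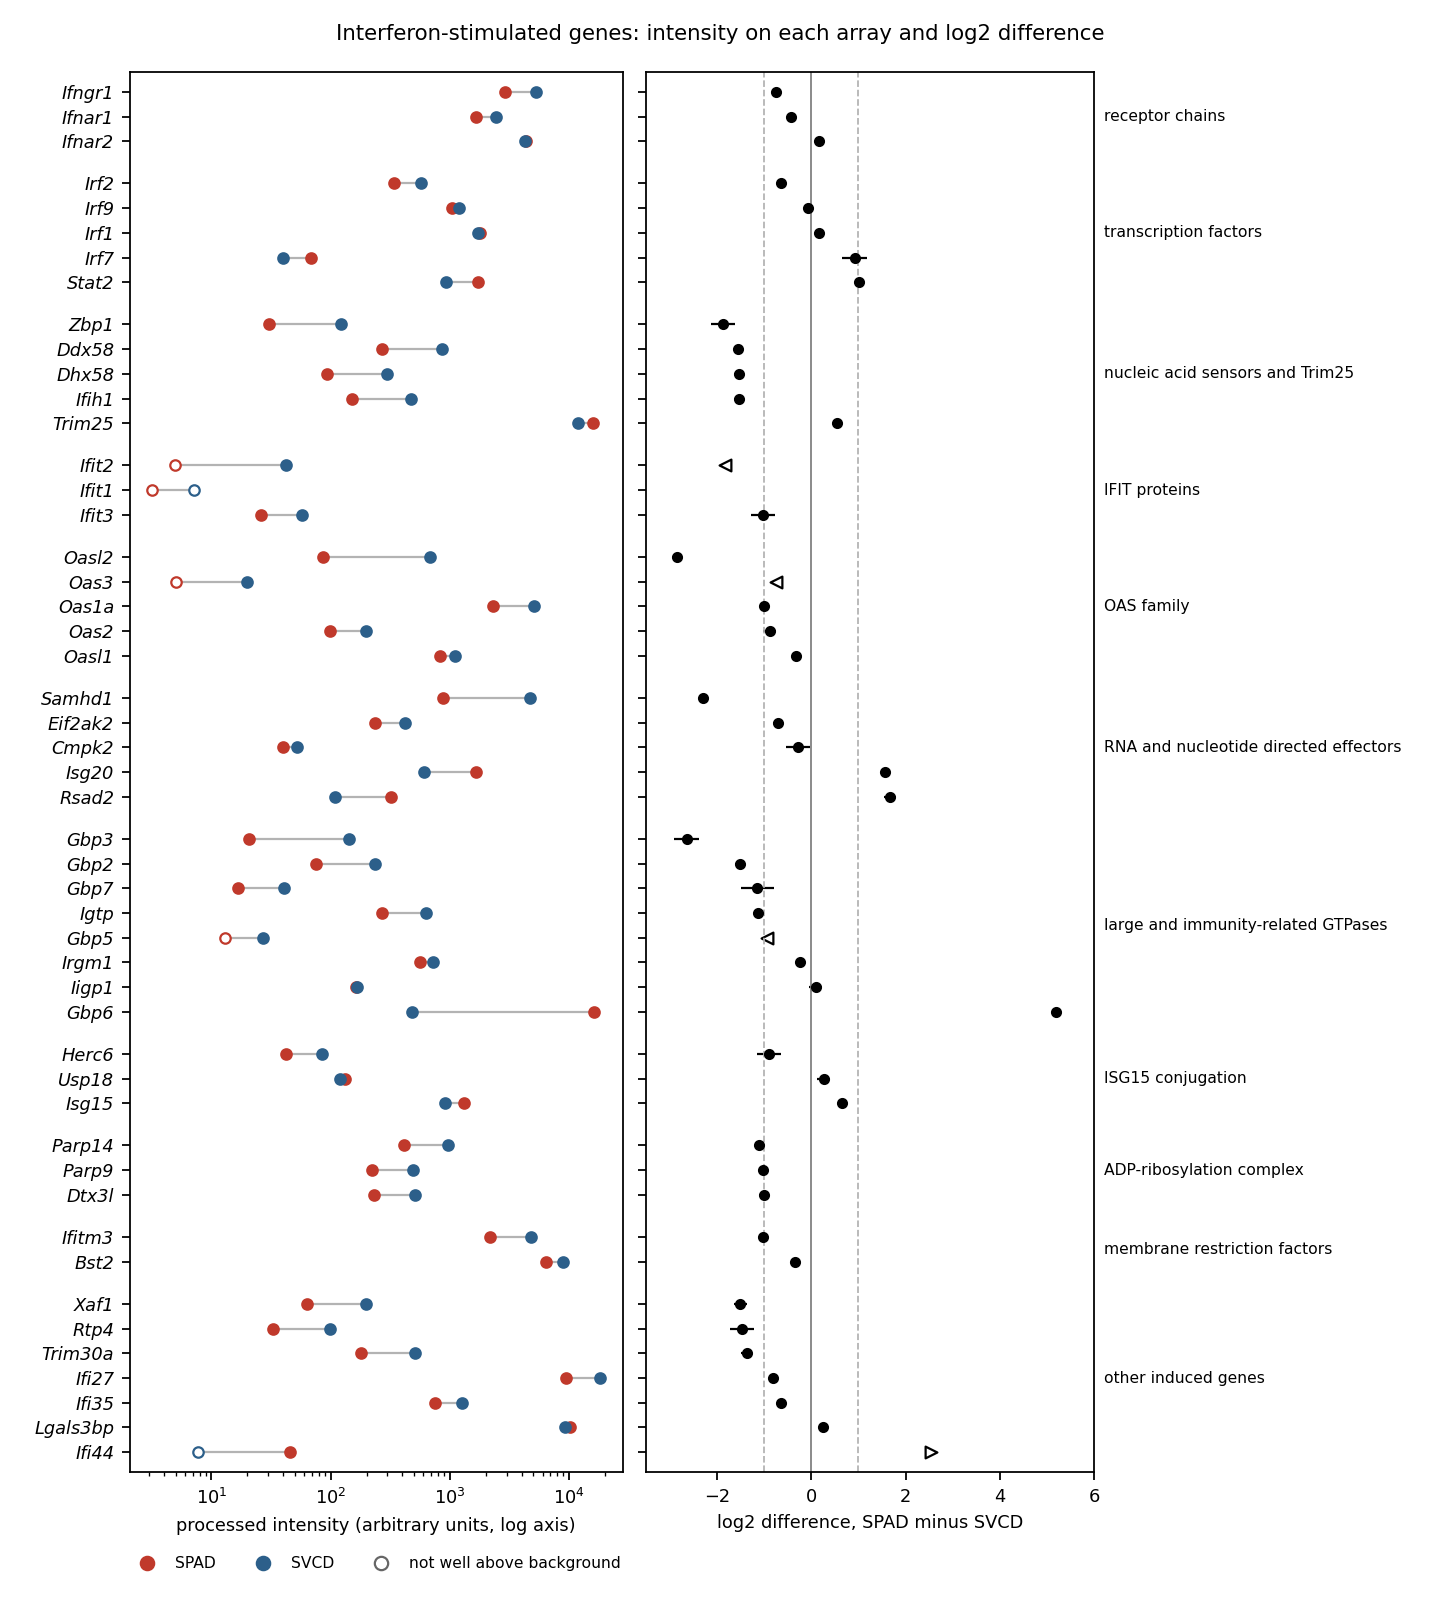
Processed intensity of each of the 49 interferon-stimulated genes on the array (left, log axis, SPAD red and SVCD blue, open where not well above background) and its log2 difference, SPAD minus SVCD (right, bars are the spot-error SD, open triangles are bounds, or for Gbp5 the value as measured). Dashed lines mark 2-fold; most points lie left of 0, and Gbp6 lies farthest right at 5.20.

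The promoters of these genes held the response elements more often than promoters at large. RefSeq promoter windows (250 bases before to 50 after the gene start, GRCm38.p6) were at hand for 39 of the 51 genes. An ISRE, searched as GAAANNGAAA on both strands, stood in a window of 20 of the 39 (51.3%) and of 3.99% of all 27025 genes in the table. A GAS, searched as TTCNNNGAA, stood in a window of 15 of the 39 (38.5%) and of 9.55% of all genes. Both motifs stood in windows of 8 genes, and in 2 windows an ISRE and a GAS match overlapped. Members of the same family share sequence by descent, so these windows are not independent of each other. The stretches below are shown because they hold the element in genes that read lower in SPAD (Gbp3, Ifih1, Igtp, Ifitm3, Oas1a), higher (Rsad2, Stat2) or less than 2-fold apart (Isg15), with the ISRE in capitals, each 5′ to 3′ on the gene's strand (a run with TTTC holds the motif on the opposite strand).
Gbp3: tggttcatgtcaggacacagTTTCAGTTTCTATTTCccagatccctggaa
Ifih1: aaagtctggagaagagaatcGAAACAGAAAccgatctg
Igtp: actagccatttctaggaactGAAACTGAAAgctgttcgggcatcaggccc
Ifitm3: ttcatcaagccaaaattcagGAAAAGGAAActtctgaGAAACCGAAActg
Oas1a: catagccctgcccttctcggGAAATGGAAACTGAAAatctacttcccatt
Rsad2: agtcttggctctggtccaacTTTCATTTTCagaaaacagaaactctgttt
Stat2: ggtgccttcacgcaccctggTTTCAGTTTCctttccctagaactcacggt
Isg15: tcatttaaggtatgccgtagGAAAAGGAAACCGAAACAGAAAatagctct

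These stretches lie at chr3:142559979-142560028 (plus strand) for Gbp3, chr2:62646206-62646243 (minus) for Ifih1, chr11:58199502-58199551 (plus) for Igtp and chr7:141010713-141010762 (minus) for Ifitm3. Oas1a is at chr5:120907516-120907565 (minus), Rsad2 at chr12:26456543-26456592 (minus), Stat2 at chr10:128270256-128270305 (plus) and Isg15 at chr4:156200867-156200916 (minus). Isg15 has 3 overlapping matches in a row, and Gbp3 and Oas1a have 2 each. Ifitm3 has 2 separate matches. In Ifih1 and Ifitm3 the first match begins after the gene start, and in the others before it. The same element thus stood near the start of genes on either side of 0. Of the 19 members with an ISRE and a value, 10 were at least 2-fold lower in SPAD and 2 at least 2-fold higher (median -1.01). Of the 19 members without one, 5 were lower and 2 higher by that measure (median -0.32). Split by GAS, 6 of the 15 members with a match were lower and 1 higher (median -0.71), and 9 of the 23 without one were lower and 3 higher (median -0.74). Here a member seen on 1 array entered at its bound, and Gbp5 at its value as measured. Over all named genes on the arrays, 14.1% were lower and 16.3% higher by 2-fold or more. A match is a description of letters and not a tested site, and genes without a match were searched in these windows alone.

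The receptor chains were all well above background on both arrays, and none was 2-fold apart. Ifngr1, the ligand-binding chain for interferon gamma, had an intensity of 2888 in SPAD and 5264 in SVCD, a log2 difference of -0.74 ± 0.08. Its partner Ifngr2, which is not a member, read 1981 in SPAD and 3647 in SVCD (-0.76 ± 0.08), so both chains of that receptor lay lower in SPAD by about the same size. Ifnar2 had 4375 in SPAD and 4292 in SVCD (0.15 ± 0.08), a sign that turned under spike-in scaling. The brightest Ifnar1 probe had 1658 in SPAD and 2423 in SVCD (-0.42 ± 0.08). Its other 2 probes gave -0.96 and 0.33, so no direction can be given for Ifnar1.

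The transcription factors that relay the signal lay on both sides of 0. Stat2, a signal carrier of the type I response, had 1713 in SPAD and 924 in SVCD, at 1.02 ± 0.08 just past 2-fold higher. Irf9, which brings that complex to DNA, had 1044 in SPAD and 1198 in SVCD (-0.07 ± 0.08). Irf7, which amplifies interferon alpha production, was dim on both arrays, with 69.0 in SPAD and 39.9 in SVCD (0.92 ± 0.27). Irf1, an activator, read 1776 in SPAD and 1739 in SVCD (0.16 ± 0.08), and the sign of Irf7 and of Irf1 turned under spike-in scaling. Irf2, which can repress the same elements, had 337 in SPAD and 574 in SVCD (-0.64 ± 0.09). The 5 factors had a median of 0.16, with 1 past 2-fold on the higher side and 0 on the lower, beside 16.3% and 14.1% of all named genes. Under spike-in scaling the median of the factors was -0.81 and 2 were lower. All named genes then had a median of -0.90, with 44.8% lower by 2-fold or more.

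The sensors of foreign nucleic acid were lower in SPAD, all 4 by more than 2-fold, beside 14.1% of all named genes. Ddx58, which encodes RIG-I, a detector of viral RNA ends, had 269 in SPAD and 865 in SVCD (-1.56 ± 0.09). Ifih1, encoding MDA5, a detector of long double-stranded RNA, had 151 in SPAD and 476 in SVCD (-1.53 ± 0.11). Dhx58, encoding their relative LGP2, had 93.8 in SPAD and 295.5 in SVCD (-1.53 ± 0.11). Those 3 members of the family thus differed by nearly the same size, 2.88-fold to 2.95-fold. Zbp1, a sensor of left-handed nucleic acid that can trigger cell death, was dimmer, with 30.4 in SPAD and 121 in SVCD (-1.87 ± 0.26). Trim25, the ubiquitin ligase that activates RIG-I, went the other way, with 15980.2 in SPAD and 11907 in SVCD (0.55 ± 0.08), although its sign turned under spike-in scaling. Ddx58, Ifih1 and Dhx58 remained at least 2-fold lower under every processing in which they had a value.

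The IFIT proteins, which bind viral RNA caps and ends, were dim throughout. Ifit3 had 26.1 in SPAD and 57.7 in SVCD (-1.02 ± 0.26), so its spot error spans the 2-fold mark. Ifit2 was not well above background in SPAD, at 4.95, against 41.9 in SVCD, at least 3.56-fold lower in SPAD. Ifit1 stayed near background on both arrays, with 3.17 in SPAD and 7.13 in SVCD, and no fold is given. Close copies such as Ifit3b exist, and whether a probe also binds them was not tested; the same holds for the Oas, Gbp, Phf11, Apol9 and interferon alpha families below.

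Oligoadenylate synthetases make the messenger that activates RNase L. The 5 members among the synthetases and their relatives were all lower in SPAD by their measured or bounded values. Oasl2, a relative of the synthetases with ubiquitin-like ends, had 86.9 in SPAD and 679 in SVCD. Its difference of -2.84 ± 0.11, or 7.17-fold, was the most negative measured value among the members. Oas1a had 2307 in SPAD and 5065 in SVCD (-1.01 ± 0.08), and its second probe gave -0.92, so it sits at the 2-fold mark. Oas2 had 98.0 in SPAD and 197 in SVCD (-0.88 ± 0.13). Oas3 was not well above background in SPAD (5.02) and read 19.8 in SVCD, at least 1.68-fold lower. Oasl1, a translational regulator of Irf7 in mice, had 820.2 in SPAD and 1116 in SVCD (-0.32 ± 0.08). The spread inside the family, -2.84 for Oasl2 and -0.32 for Oasl1, was wider than the spot error of any of its members.

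The effectors that act on RNA or nucleotides split in both directions. Rsad2, encoding viperin, which makes a chain-terminating nucleotide, had 319 in SPAD and 109.8 in SVCD, 1.66 ± 0.12 or 3.17-fold higher. Isg20, an exonuclease that degrades RNA, had 1644 in SPAD and 612 in SVCD (1.55 ± 0.08, 2.93-fold), and its second probe gave 1.74. Samhd1, which breaks down deoxynucleotides and so starves reverse transcription, had 880 in SPAD and 4726 in SVCD (-2.30 ± 0.08, 4.92-fold lower). A second Samhd1 probe gave -1.21, the same direction at a smaller size. Eif2ak2, the kinase PKR that halts translation, had 236 in SPAD and 422 in SVCD (-0.71 ± 0.09). Cmpk2, a nucleotide kinase that lies beside Rsad2 in the genome, had 39.8 in SPAD and 52.4 in SVCD (-0.27 ± 0.26). The other Cmpk2 probe read 3.25 in SPAD, not well above background, and 42.4 in SVCD. Rsad2 and Isg20 stayed above 0 under every processing tried but fell short of 2-fold under spike-in scaling.

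The large guanylate-binding and immunity-related GTPases are induced by interferon gamma and assemble on the vacuoles of intracellular pathogens. Most read lower in SPAD, while the probes of Gbp6 disagree, as given below. Under normexp correction 2 of the group were at least 2-fold lower and 1 higher (median -0.22), beside 9.15% and 9.49% of all named genes. Gbp3 had 20.7 in SPAD and 141 in SVCD (-2.64 ± 0.26, 6.25-fold lower), and Gbp2 had 75.2 in SPAD and 234 in SVCD (-1.51 ± 0.11). Gbp7 read 16.8 in SPAD and 40.5 in SVCD (-1.14 ± 0.34). Gbp5 read 13.1 in SPAD, not well above background, and 27.2 in SVCD. That is 1.91-fold lower as measured, and not a lower limit. Igtp, an immunity-related GTPase, had 268 in SPAD and 636 in SVCD (-1.12 ± 0.03, from 10 spots). Irgm1, which regulates the others, had 561 in SPAD and 725 in SVCD (-0.24 ± 0.08), and Iigp1 had 164 in SPAD and 168 in SVCD (0.09 ± 0.13).

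Gbp6 stood apart. Its brighter probe had 16340.2 in SPAD and 486 in SVCD, a difference of 5.20 ± 0.08 or 36.7-fold higher, the only member more than 2-fold higher under every processing. Its second probe, designed to the same transcript, read 7.98 in SPAD, not well above background, and 17.1 in SVCD, a difference of -0.97 as measured. The probes disagree in direction, so none is given for the gene. Without Gbp6, 4 members were at least 2-fold higher. The neighbouring family members Gbp9 and Gbp10, which are not members, read 30.0 and 39.1 in SPAD against 50.3 and 43.2 in SVCD, and neither array showed Gbp4 or Gbp8 well above background.

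**Figure D2:**
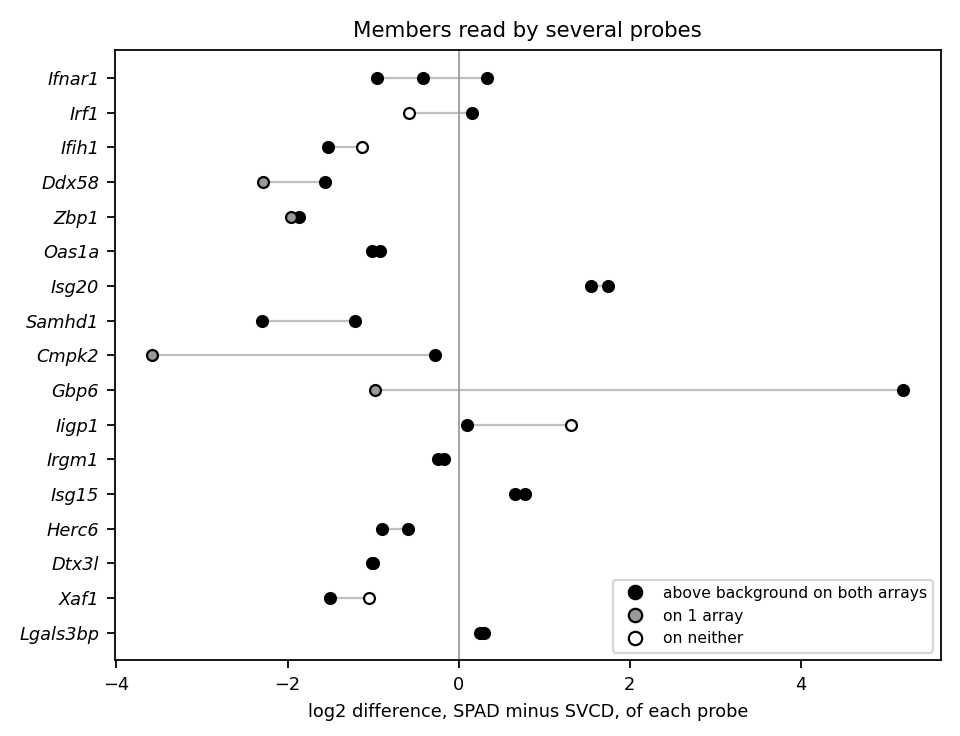
Log2 difference, SPAD minus SVCD, of every probe of the 17 interferon-stimulated genes read by several probes (black, above background on both arrays; grey, on 1 array; open, on neither). Most pairs of points lie close together or on the same side of 0, while the points of Gbp6 lie at 5.20 and -0.97.

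Several probes read 17 of the members, and for 13 of them more than 1 probe was well above background on an array. In 11 of the 13 these probes shared a direction, and the exceptions were Gbp6 and Ifnar1. Isg15 gave 0.66 and 0.77 and Oas1a gave -1.01 and -0.92, so the probes of each differed by less than 0.2.

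The genes of the ISG15 system were less than 2-fold apart and lay on both sides of 0. Isg15, the ubiquitin-like protein that is attached to newly made proteins, had 1316 in SPAD and 911 in SVCD (0.66 ± 0.08). Usp18, the protease that removes it and that restrains the type I receptor, had 131 in SPAD and 119 in SVCD (0.27 ± 0.13). Herc6, which attaches ISG15 in mice, had 42.0 in SPAD and 85.1 in SVCD (-0.89 ± 0.26). Under spike-in scaling Isg15 and Usp18 lay below 0 as well, and 1 of the 3 was at least 2-fold lower, beside 44.8% of all named genes. Outside the member list, Uba7, the enzyme that activates ISG15 for transfer, had 210.4 in SPAD and 1171 in SVCD (-2.35 ± 0.09, 5.10-fold lower).

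The 3 genes of the ADP-ribosylation group were lower in SPAD by almost the same size. Parp9 had 221 in SPAD and 489 in SVCD (-1.02 ± 0.09), and Dtx3l, the ubiquitin ligase with which it pairs, had 230.3 in SPAD and 507 in SVCD (-1.01 ± 0.09). Parp14, which modifies Stat proteins, had 413 in SPAD and 971 in SVCD (-1.11 ± 0.09). Parp9 and Dtx3l lie within 1 spot-error SD of the 2-fold mark, and under normexp correction 0 of the 3 were past it.

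Membrane restriction factors were lower in SPAD as well. Ifitm3, which blocks viral fusion in endosomes, had 2169 in SPAD and 4806 in SVCD (-1.02 ± 0.03, from 10 spots). That value lies within 1 spot-error SD of the 2-fold mark. Bst2, or tetherin, which holds budding virus at the surface, had 6375 in SPAD and 8887 in SVCD (-0.35 ± 0.08).

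Among the remaining induced genes, Ifi44 read 45.8 in SPAD and 7.68 in SVCD, where it was not well above background, at least 5.81-fold higher in SPAD. Xaf1, a promoter of apoptosis, had 63.7 in SPAD and 197 in SVCD (-1.50 ± 0.13), and Rtp4, a receptor transporter, had 32.7 in SPAD and 98.3 in SVCD (-1.46 ± 0.26). Trim30a, a negative regulator of innate signalling in mice, had 180.5 in SPAD and 509 in SVCD (-1.37 ± 0.11). Ifi27, a small mitochondrial and nuclear envelope protein, was bright on both arrays at 9487 in SPAD and 18303 in SVCD (-0.82 ± 0.08). Ifi35 had 744.5 in SPAD and 1263 in SVCD (-0.64 ± 0.08). Lgals3bp, a secreted glycoprotein, had 10182 in SPAD and 9337 in SVCD (0.25 ± 0.08), with the sign turned by spike-in scaling. Of the 7 genes of this group, 3 were lower by 2-fold or more and 1 was higher, beside 14.1% and 16.3% of all named genes.

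A wider list of 65 other interferon-induced genes also read mostly lower in SPAD. It was chosen with earlier results of these data known, so it is not independent of the result for the members. Of its 58 genes with a probe, 52 were above background on at least 1 array, of which 17 (32.7%) were at least 2-fold lower in SPAD and 1 (1.92%) at least 2-fold higher, beside the 14.1% and 16.3% of all genes. The median of the 49 genes above background on both arrays was -0.62. The brighter probe of Ifi27l2b read 10.72 in SPAD (not well above background) and 416 in SVCD, at least 35.3-fold lower for that probe. Its other probe was above background on both arrays, with 15.8 in SPAD and 40.1 in SVCD (-1.22), so the direction is shared but the size is not settled. Another large difference was in Apol9b, at 55.6 in SPAD and 1224 in SVCD (-4.34 ± 0.11). By the brightest probe of each gene, next came Uba7, given above, then Phf11b with 122.5 in SPAD and 652.5 in SVCD (-2.29 ± 0.11). Ifi47, an immunity-related GTPase, had 129 in SPAD and 676 in SVCD (-2.26 ± 0.11), and Phf11d had 247 in SPAD and 1281 in SVCD (-2.25 ± 0.09). Sp110 entered at 0.07 from a probe at 133232.4 in SPAD and 138001.2 in SVCD. Its other probes gave -3.11 and -3.45, so no direction can be given for Sp110. The single gene higher by 2-fold was Cxcl9, a T cell attractant induced by interferon gamma, at 25.2 in SPAD and 6.24 in SVCD, where it was not well above background, at least 3.20-fold higher. Its other probe was well above background on neither array.

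**Figure D3:**
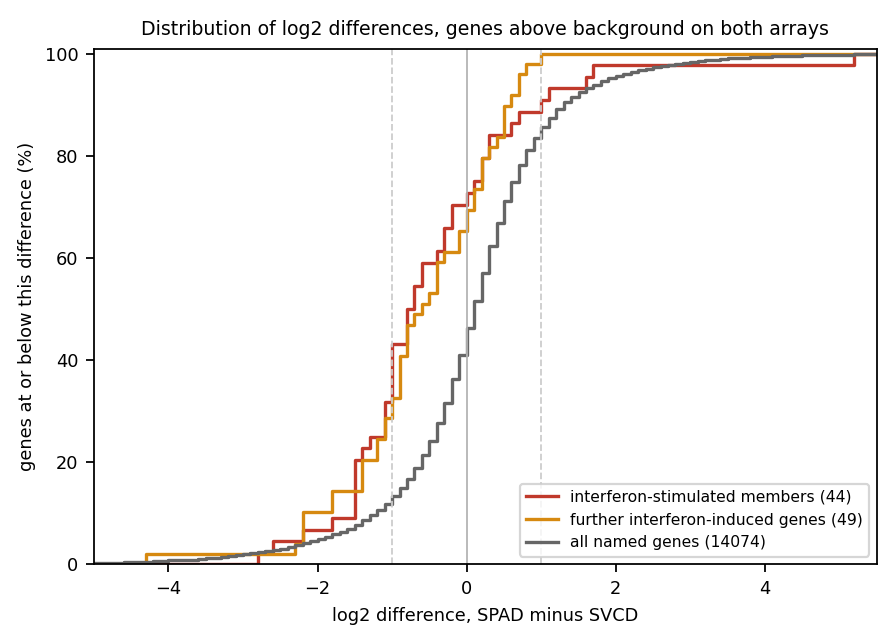
Cumulative share of genes (y axis, %) at or below each log2 difference, SPAD minus SVCD (x axis), for the 44 interferon-stimulated genes (red), 49 further interferon-induced genes (orange) and all 14074 named genes (grey) above background on both arrays. Between -2 and 1 both interferon curves run above the grey curve, and dashed lines mark 2-fold.

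Most interferon ligands above background differed in the direction opposite to most of their targets, at low intensity. Of 21 ligand genes, 16 had a probe, with a median intensity of 47.0 in SPAD and 22.9 in SVCD. Above background on at least 1 array were 11, with 8 of them higher in SPAD by 2-fold or more and 0 lower (median 1.55). Over all named genes 16.3% were higher and 14.1% lower by that size. Ifna11 had 527 in SPAD and 44.9 in SVCD (3.68 ± 0.26, 12.8-fold). Ifna5 had 124.5 in SPAD and 36.5 in SVCD (1.90 ± 0.27), and Ifnab had 140.0 in SPAD and 47.4 in SVCD (1.69 ± 0.13). Ifna2 read 75.8 in SPAD and 27.5 in SVCD, Ifna1 read 150.0 in SPAD and 54.9 in SVCD, and Ifna13 read 48.2 in SPAD and 18.3 in SVCD, 2.88-fold to 3.01-fold higher. The interferon alpha genes are nearly identical, and whether the 8 are separate readings was not tested. Only 2 of the list were 2-fold higher under normexp correction, beside 9.49% of all named genes. Under spike-in scaling 1 of the list was, beside 5.64% of all named genes, and the list's median was 0.58. Ifnb1 (2.27 in SPAD, 1.82 in SVCD) and Ifng (2.89 in SPAD, 2.30 in SVCD) were well above background on neither array. As measured, these 2 undetected genes read 0.44 and 0.46 log2 units higher in SPAD. The lowest signal above background also lay higher in SPAD, at -5.85 against -6.30 in SVCD on the scaled log2 axis. The 2 readings are therefore not taken as a result for Ifnb1 or Ifng. The part of this offset in the dim ligand readings was not tested.

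Signalling genes next to the receptors were spread around 0, with a median of 0.11. Jak1, a kinase that serves every interferon receptor, had 12956 in SPAD and 6975 in SVCD (1.02 ± 0.08), and Stat3 had 8503.5 in SPAD and 4218 in SVCD (1.14 ± 0.03). Il10rb, the shared chain of the interferon lambda receptor, had 1262 in SPAD and 3722 in SVCD (-1.44 ± 0.08). Tyk2, a kinase of the type I receptor, had 564 in SPAD and 585 in SVCD (0.07 ± 0.09). Under spike-in scaling 0 of these 8 genes were 2-fold higher and 3 were lower, beside 5.64% and 44.8% of all named genes. Of 5 negative regulators, Socs3, a feedback inhibitor of Janus kinases, was higher with 2487 in SPAD and 873 in SVCD (1.64 ± 0.08). Ptpn6, the phosphatase SHP-1, which blood-derived cells chiefly express, was lower with 248 in SPAD and 3457 in SVCD (-3.67 ± 0.09).

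Of 9 genes on the route that induces interferon, 5 were at least 2-fold lower in SPAD and 0 higher, beside 14.1% and 16.3% of all named genes. Irf5 had 220.2 in SPAD and 2975 in SVCD (-3.63 ± 0.09), and Irf8 had 2784 in SPAD and 6903 in SVCD (-1.18 ± 0.08). Both are transcription factors prominent in myeloid cells. Ikbke, a kinase upstream of Irf3, had 46.8 in SPAD and 205.5 in SVCD (-2.01 ± 0.26). Tmem173, encoding the DNA-response adaptor STING, had 816.5 in SPAD and 3342 in SVCD (-1.91 ± 0.08). Tlr3, an endosomal RNA receptor, read 7.94 in SPAD, not well above background, and 25.7 in SVCD, at least 2.18-fold lower.

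Markers of other cell types differed between the same 2 arrays. Of 9 macrophage markers with a probe, 6 were at least 2-fold lower in SPAD and 0 higher (median -1.22), beside 14.1% and 16.3% of all named genes. Of the 9 markers, 8 were well above background in SPAD and 9 in SVCD. Their summed intensity was 121432.5 in SPAD and 183022 in SVCD, most of the SPAD sum from Lyz2. Without Lyz2 the sums were 23004 in SPAD and 98563 in SVCD. Csf1r, the receptor for the macrophage growth factor, had 3186 in SPAD and 58410.2 in SVCD (-4.07 ± 0.08), Aif1 had 60.4 in SPAD and 1743 in SVCD (-4.72 ± 0.11), and Mrc1 had 991 in SPAD and 7107 in SVCD (-2.72 ± 0.08). Adgre1 had 4969 in SPAD and 13508 in SVCD (-1.32 ± 0.08), Ptprc had 412 in SPAD and 982 in SVCD (-1.13 ± 0.09), and Fcgr1, itself inducible by interferon, was not well above background in SPAD (9.93) and read 407 in SVCD. Other probes of Csf1r gave -4.03 and -1.64. Lyz2 (0.35) and Cd14 (0.11) differed little. The part of macrophage RNA in the lower readings of the interferon-stimulated genes was not tested.

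For T and NK cells 0 of the 5 markers above background on both arrays were 2-fold apart. Cd3d was above background in SPAD alone, at least 1.98-fold higher (15.6 in SPAD, 1.88 in SVCD), and Klrb1c in SVCD alone, at least 1.38-fold lower (2.92 in SPAD, 16.3 in SVCD), and neither bound settles whether it is 2-fold apart. T and NK cell markers had summed intensities of 2497 in SPAD and 2784 in SVCD over 10 markers. Among B cell markers, Cd79b had 145 in SPAD and 24.2 in SVCD (2.70 ± 0.27) and Cd79a was at least 2.08-fold higher in SPAD, while Ms4a1 was well above background on neither. Plasmacytoid dendritic cells, a major source of interferon alpha, have 5 markers on the list, with sums of 73561 in SPAD and 70838 in SVCD, nearly all of it from 1 probe of Siglech. The other Siglech probe was well above background on neither array (2.96 in SPAD, 2.38 in SVCD), so that sum rests on a probe with no second reading. Of the 3 markers above background, Cox6a2 was 2-fold apart (-1.47 ± 0.11). Endothelial markers were at least 2-fold higher in SPAD for 8 of 10 (sums 19322 in SPAD and 7133 in SVCD, median 2.86), while fibroblast markers split, with Dcn (1.87) and Thy1 (3.12) past 2-fold higher and Col1a1 (-0.99), Col3a1 (-0.73) and Lum (-0.72) below 0. Mesothelial markers were lower for 3 of 6 (sums 1257 in SPAD and 11605 in SVCD) and proliferation markers for 7 of 8 (sums 9877 in SPAD and 35949.6 in SVCD). The part of these cells, and of cell division, in the interferon results was not tested either.

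**Figure D4:**
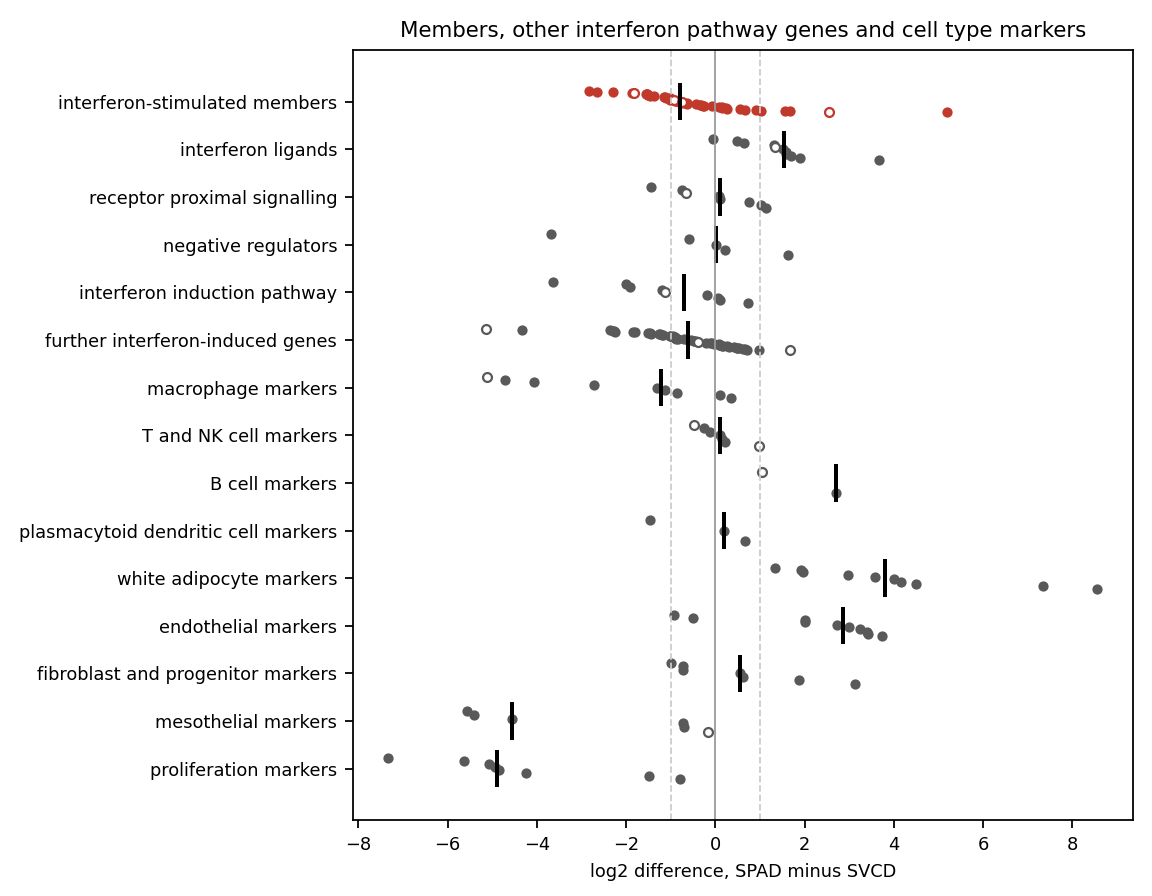
Log2 difference, SPAD minus SVCD, of the interferon-stimulated genes (red), the other interferon pathway lists and the cell type markers (grey), 1 point per gene above background on at least 1 array, open where it was so on 1 array alone. Black bars are list medians over genes above background on both arrays; the members' bar lies at -0.78 and that of the macrophage markers at -1.22.

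Across 9 ways of processing that gave values per gene, 34 of the 48 members lay below 0 in every one where they had a value, 5 above 0 in every one, and 9 took either sign. Spike-in scaling alone turned 7 of the 9, as a shift shared by every gene, and says nothing of those genes singly; Cmpk2 and Irf1 turned under another setting. The 34 include Ifnar1, whose probes differ in direction. The 5 were Gbp6, Ifi44, Isg20, Rsad2 and Stat2, of which Gbp6 has a second probe that disagrees. Stat2 fell to 0.05 under spike-in scaling, less than its spot error of 0.08. Ifi44, dim and well above background on the SPAD array alone, fell to 0.78 under normexp correction. Lower by 2-fold or more throughout were 9, namely Ddx58, Dhx58, Gbp2, Gbp3, Ifih1, Ifitm3, Oasl2, Samhd1 and Trim30a. Ifitm3 was only just so, at -1.01 under normexp correction. None of these counts across the ways of processing was made for all named genes, so no background share stands beside them. Among the 9 are genes of sensing, nucleotide control, vacuole attack and viral entry, beside Oasl2 and Trim30a. The members of either sign were Cmpk2, Ifnar2, Iigp1, Irf1, Irf7, Isg15, Lgals3bp, Trim25 and Usp18.

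**Figure D5:**
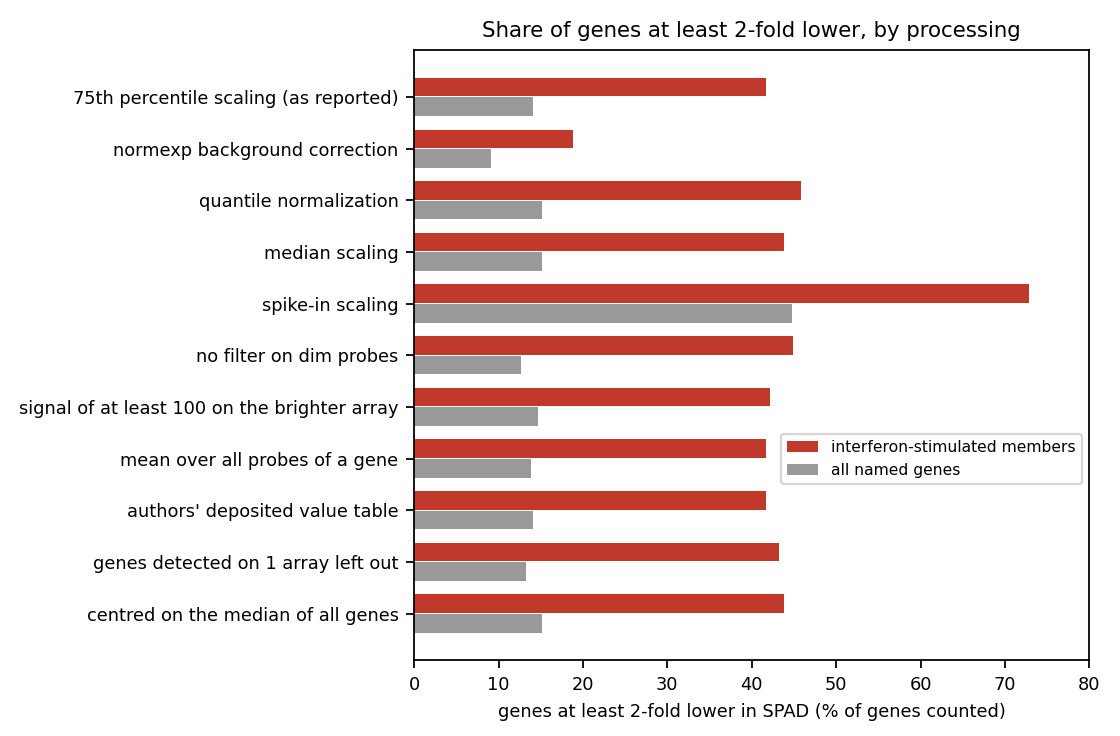
Share of genes at least 2-fold lower in SPAD (x axis, % of genes counted) under each way of processing, for the interferon-stimulated genes (red) and all named genes (grey). The red bar is the longer one in every row, at 18.8% beside 9.15% with normexp correction and 72.9% beside 44.8% with spike-in scaling.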

How the data were processed

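Agilent Feature Extraction (10.7.3.1) read the spots, as the submitters' processing notes give it. The deposited scanner files hold each spot's processed intensity, background-subtracted on a linear scale, a flag for spots well above background (another kind of value, 0 or 1), and raw median intensities, per the file headers. The deposited table of the authors' values is on a log2 scale, each probe centred over both arrays; it equals the scanner log2 difference plus a constant of 0.12, and the reason for that scaling is not stated in the sources used here. Both arrays share 1 slide and 1 scan.

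Control and outlier-marked spots were left out, repeat spots averaged, and log2 intensity scaled to each array's 75th percentile. Of 39425 probes, 27506 (69.8%) were named by transcript through a RefSeq table (GRCm38.p6). The array design was annotated on another genome build, so coordinates are those of the RefSeq windows. A gene is its probe of highest mean log2 signal. A gene above background on 1 array was compared with whichever is higher, the dim probe's value or that array's lowest signal above background. It is given as "at least N-fold" where the latter was used, and as measured otherwise (Gbp5). With 1 array per group genes were counted by size, at least 2-fold, with no test; the number of arrays limits the precision. Spot error came from probes printed 10 times, in 6 signal bins. The members and lists were chosen with earlier results of these data known. All members are given; of each other list, up to 6 genes with the greatest difference past 2-fold plus Jak1, Tyk2, Ifngr2, Ifnb1 and Ifng were named, and Gbp9, Gbp10, Gbp4, Gbp8, Cfd, Lyz2, Cd14, Ms4a1, Cd3d, Klrb1c, Siglech, Col1a1, Col3a1 and Lum were added after their values were seen; a few genes of these lists are not reported here. Scripts ran in Python 3.11.15 and R 4.3.3 with limma 3.58.1, and were tested on simulated data. Of the alternatives, 9 were planned and 1, centring on the median of all genes, was chosen after seeing the data. The normexp alternative (offset 50) used median spot signals, because the files hold no mean signal column.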

Additional observations from a re-analysis of the deposited data

How the results depend on the processing

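The counts of members at least 2-fold apart (5 higher and 20 lower in SPAD) and the members' median (-0.78) moved under normexp background correction, to 3 higher, 9 lower and a median of -0.565, and under scaling to spike-in controls, to 2 higher, 35 lower and a median of -1.751. Under the other alternatives, the centring chosen after seeing the data included, 4 or 5 members were higher and 16 to 22 lower, and the median stayed between -0.884 and -0.727. The median was below that of all genes under every alternative, which for the scalings by 1 constant per array holds by construction. No paired analysis was possible because each group has 1 array; for the same reason no array could be left out. With 1 array per group no spread between samples is known. Dim members add a limit: 4 were well above background on 1 array alone, and the spot error reached 0.34 for the dimmest.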
